A study of Rattus norvegicus with 9 samples.

Results

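Hepatic macrophages of rats with partial portal vein ligation (PPVL), taken at 3 days, were compared with those of sham-operated rats, across all genes of an expression array. The comparison used 6 of the 9 arrays of the study, chosen by their labels: 3 arrays of rats at 3 days after PPVL and 3 of sham rats. The other 3 arrays, from rats at 10 days after PPVL, entered the fit only to share the estimate of the spread and are set beside the 3-day values where stated. All animals were male Sprague-Dawley rats whose age is not given. Each array held total RNA of the macrophages isolated from the liver of 1 rat. In the PPVL rats a ligature was tied around the portal vein together with a blunt needle, and removing the needle left a narrowing of fixed width. The sham rats had the same abdominal operation without a ligature. The day on which sham macrophages were collected is not given, so the time since the operation may differ between the groups.

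PPVL raises the pressure in the portal vein while the liver itself starts out healthy, and it is a standard model of prehepatic portal hypertension. Liver macrophages comprise resident Kupffer cells, which line the sinusoids and take up bacterial products, debris and old red cells from portal blood, and monocyte-derived cells that enter after injury. They release matrix proteins, proteases, cytokines, nitric oxide and lipid mediators, and several of these act on vessel tone and vessel growth.

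A value below is the deposited log2 signal of a gene's probeset, so a difference of 1 is a 2-fold change. A difference is 3 days minus sham ± its standard error (SE), from 3 rats in each group. Adjusted p values come from limma's moderated test, with Benjamini-Hochberg adjustment over all 14014 genes tested. "Rose" and "fell" mean an adjusted p under 0.05. Values of different probesets are not compared with each other as levels. Arrays had median signals of 5.21 to 5.26, and any pair correlated at 0.987 to 0.993 across probesets. General macrophage genes were bright in every sham rat: Csf1r, the receptor for the macrophage growth factor, read 9.75 to 9.99 and the endosomal protein gene Cd68 10.74 to 11.10. The Kupffer cell markers Clec4f and Cd163 read 4.51 to 4.76 and 4.23 to 4.42 there, close to the 4.16 below which genes were left out as dim. Other genes of the Kupffer cell list, such as Cfp, Slc40a1 and Fcna, were further above that limit in all sham rats, with values given below. Genes of T and natural killer cells were well above that limit in all sham rats, with Cd3e at 9.57 to 9.91 and the granzyme gene Gzmb at 10.92 to 11.16. In bulk RNA of this kind, fewer cells of a type and less RNA per cell cannot be told apart.

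At 3 days after PPVL, 301 genes were higher than in sham (2.15% of those tested) and 100 were lower (0.714%). Together these were 401 genes (2.86%), and 44 of the rises and 8 of the falls reached 2-fold. The median difference was 0.65 among the rises, -0.52 among the falls and -0.01 over all genes. The 3-day and sham values of every one of the 401 genes did not overlap, as was the case for 18.8% of all genes tested. Of all genes tested 45.0% had a difference above 0. The counts of the gene lists below are to be read beside these shares. Rises were commoner among bright genes. In 4 equal bins of the mean signal, from dimmest to brightest, 0.171%, 1.20%, 2.91% and 4.31% of genes rose, and 0.143%, 0.514%, 1.20% and 0.999% fell. The number of calls depended on single arrays. Leaving out sham rat 1, 2 or 3 gave 256, 190 and 240 genes, leaving out 3-day rat 2 gave 194, and leaving out any of the other 5 arrays gave 283 to 327. A set of 132 genes, of which 111 rose and 21 fell, was called in all 9 of these fits. With the 10-day arrays left out of the fit 134 genes were called, 128 of them among the 401. With all probesets above the signal limit tested singly, named or not, 191 probesets were called. Before adjustment, 2171 genes had p under 0.05.

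**Figure D1:**
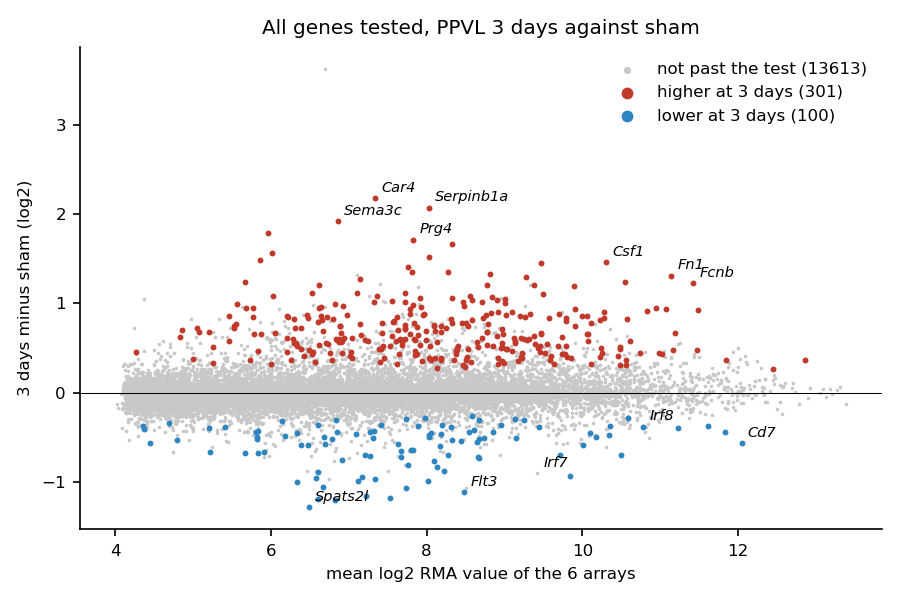
Difference between 3 days and sham (log2, vertical axis) against the mean log2 signal of the 6 arrays (horizontal axis), with 1 point for each of the 14014 genes tested. The 301 rises (red) lie mostly at middle and high signals, the 100 falls (blue) reach about as far down as Spats2l at -1.28, and the grey point far above the rest is Ly6al.

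The largest rises past the test were those of Car4, Serpinb1a, Sema3c and Fetub. Car4, a membrane-anchored carbonic anhydrase, read 5.95, 6.29 and 6.49 in the sham rats and 8.63, 8.72 and 7.92 in the 3-day rats, a difference of 2.18 ± 0.28, adjusted p = 0.00449. Every 3-day rat was above every sham rat, and 3-day rat 3 was the lowest of its group. Sema3c, a secreted semaphorin, read 5.72, 6.01 and 5.96 in the sham rats and 8.06, 7.85 and 7.54 in the 3-day rats (1.92 ± 0.14, adjusted p = 0.000929). The sham values lay within a narrow band and all 3-day rats were far above it. Fetub, which encodes the secreted protease inhibitor fetuin-B, read 4.93, 5.10 and 5.16 in the sham rats and 6.84, 7.18 and 6.52 in the 3-day rats (1.79 ± 0.20, adjusted p = 0.00256). Its sham signal was dim, and again 3-day rat 3 was lowest among the ligated rats.

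Other large rises were those of B4galt6, a galactosyltransferase of glycolipid synthesis (1.41 ± 0.14, adjusted p = 0.00228), Oscar, an activating immunoglobulin-like receptor of myeloid cells (1.35 ± 0.14, adjusted p = 0.00228), and Dab2, an adaptor of endocytosis (1.33 ± 0.13, adjusted p = 0.00228). Prom1, a membrane protein known as CD133, rose as well (1.24 ± 0.11, adjusted p = 0.00228). All of these were called in each fit without 1 array. Ighl14, an immunoglobulin heavy chain locus, also rose (1.36 ± 0.29, adjusted p = 0.0407), but it was called in 2 of the 9 fits without 1 array, and whether its probeset also detects similar immunoglobulin genes was not tested. The largest difference of any gene was that of Ly6al, which did not pass. It read 3.33, 5.48 and 5.83 in the sham rats and 8.68, 8.84 and 8.0 in the 3-day rats (3.63 ± 0.85, adjusted p = 0.0568), and sham rat 1 was far below the other sham rats. At 10 days Ly6al read 3.77, 7.16 and 6.42, with 10-day rat 1 likewise far below the others of its group.

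Among the falls, Spats2l led with 6.82, 7.44 and 7.12 in the sham rats and 5.52, 5.99 and 6.01 in the 3-day rats (-1.28 ± 0.17, adjusted p = 0.00558), and a second probeset of the gene gave -1.25. Gpm6b, a membrane glycoprotein of the proteolipid family, read 7.15, 7.57 and 7.57 in the sham rats and 6.05, 6.31 and 6.30 in the 3-day rats (-1.21 ± 0.12, adjusted p = 0.00228). The groups were clearly apart in both genes, with 3-day rat 1 the lowest. Paqr5, a membrane progestin receptor (-1.16 ± 0.18, adjusted p = 0.0106), Pygm, a glycogen phosphorylase (-0.97 ± 0.14, adjusted p = 0.00868), and Kmo, an enzyme of tryptophan breakdown (-0.95 ± 0.15, adjusted p = 0.0124), also fell. So did the fatty acid elongase Elovl7 (-1.18), the adaptor Gapt (-1.19) and the lysosomal transporter Slc46a3 (-1.0). Calls that ended when 1 array was left out were those of Kmo (without sham rat 2, adjusted p up to 0.0538), Elovl7 (in 3 fits, adjusted p up to 0.0690), Gapt (in 3 fits, adjusted p up to 0.0654) and Slc46a3 (in 4 fits, adjusted p up to 0.0659).

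**Figure D2:**
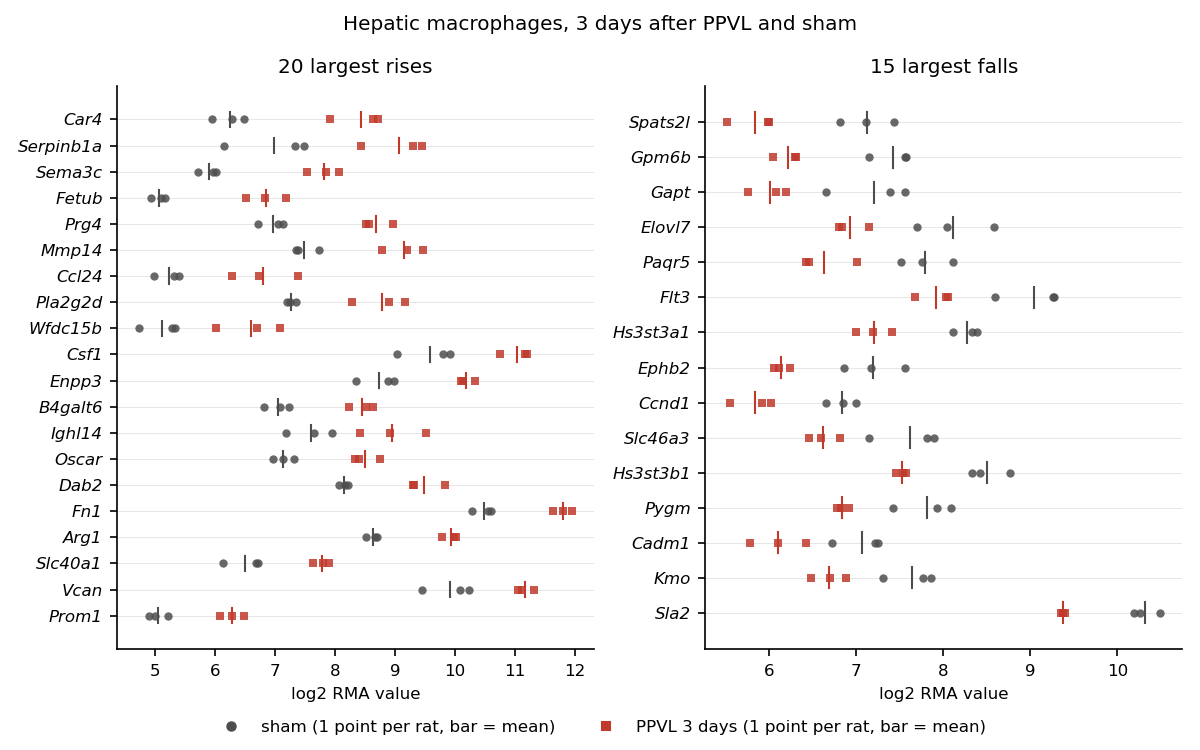
Log2 signal of the 20 largest rises (left) and 15 largest falls (right) past the test, with 1 point per rat in the sham (grey circles) and 3-day (red squares) groups and a bar at each mean. The groups do not overlap for any of these genes, which the choice of genes fixes, and sham rat 1 is the lowest sham rat for Serpinb1a (6.15) and Csf1 (9.03).

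Matrix genes changed in a few large steps. Of 22 tested genes of secreted matrix proteins and proteoglycans, 6 rose and none fell, and the median difference of 0.01 was close to that of all genes. Fn1, which encodes fibronectin, read 10.29, 10.60 and 10.55 in the sham rats and 11.95, 11.79 and 11.63 in the 3-day rats (1.31 ± 0.10, adjusted p = 0.000929). Prg4, which encodes the lubricating proteoglycan lubricin, read 6.72, 7.13 and 7.05 in the sham rats and 8.57, 8.96 and 8.52 in the 3-day rats (1.71 ± 0.16, adjusted p = 0.00228). The lowest 3-day rat exceeded the highest sham rat by more than the spread within either group in both genes. Vcan, the large proteoglycan versican, read 9.46, 10.23 and 10.08 in the sham rats and 11.31, 11.12 and 11.06 in the 3-day rats (1.24 ± 0.17, adjusted p = 0.00631). Sham rat 1 was the lowest of the sham rats here too. Spp1, which encodes osteopontin (0.91), Tgfbi, a matrix protein induced by TGF beta (0.78), and Ecm1 (0.60) made up the rest. Without sham rat 1 or sham rat 2, 4 of the genes rose. The lost calls were those of Spp1 (without sham rat 1 and sham rat 2, adjusted p up to 0.0714) and Ecm1 (in 7 fits, adjusted p up to 0.130).

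Fn1, Prg4, F5 and Serpinb2 are also known from peritoneal macrophages, and these were the 4 of 14 peritoneal macrophage genes that rose (median 0.04). F5, coagulation factor V, read 7.25, 7.38 and 7.53 in the sham rats and 8.52, 8.39 and 8.42 in the 3-day rats (1.06 ± 0.08, adjusted p = 0.000929), with no overlap between the groups. Serpinb2, an inhibitor of plasminogen activators, rose by 0.83 ± 0.17, a call lost in 7 of the 9 fits without 1 array (adjusted p up to 0.125). None of 6 mesothelial markers changed (median -0.02), and their mean level, each gene centred on its mean over 9 arrays, was -0.08 to 0.11 in sham and -0.08 to 0.04 at 3 days. Whether peritoneal cells took part was not tested.

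Of 27 metalloproteinases and their inhibitors, Mmp14 and Adam15 rose. Mmp14, a membrane-bound collagenase, read 7.39, 7.36 and 7.73 in the sham rats and 9.47, 9.20 and 8.79 in the 3-day rats (1.66 ± 0.19, adjusted p = 0.00323). Every 3-day value lay at least 1 log2 unit above the highest sham value. Adam15, a membrane-bound disintegrin and metalloproteinase, read 5.57, 5.90 and 5.86 in the sham rats and 6.74, 6.64 and 6.53 in the 3-day rats (0.86 ± 0.10, adjusted p = 0.00338). Both were called in all 9 fits without 1 array.

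Among genes of plasminogen activation, coagulation and serpins 9 of 23 rose, 1 fell, and the median difference was 0.46. Plau, the urokinase plasminogen activator (0.64 ± 0.14, adjusted p = 0.0489), its receptor Plaur (0.36 ± 0.08, adjusted p = 0.0481), and Anxa2, a membrane-binding partner of plasminogen activation (0.48 ± 0.08, adjusted p = 0.0127), rose. Thbd, the thrombin-binding receptor thrombomodulin, rose by 1.20 ± 0.22, and F2r, the thrombin receptor PAR1, fell (-0.72 ± 0.14). Several of these calls were thin. Without 3-day rat 2 the list had 3 rises, and only F5 was called in every fit without 1 array. The calls lost were those of Plau (in 8 fits, adjusted p up to 0.114), Plaur (in 8 fits, adjusted p up to 0.145), Anxa2 (without 3-day rat 2, adjusted p up to 0.0516), Thbd (in 3 fits, adjusted p up to 0.0653) and F2r (in 6 fits, adjusted p up to 0.105).

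Of the risers among plasminogen activation and serpin genes 4 are clade B serpins, which act mainly inside cells. Serpinb1a, an inhibitor of neutrophil elastase, read 6.15, 7.48 and 7.33 in the sham rats and 9.31, 9.44 and 8.43 in the 3-day rats (2.07 ± 0.37, adjusted p = 0.0186). Sham rat 1 lay more than 1 log2 unit under the other sham rats, and 3-day rat 3 was the lowest ligated rat. Serpinb6a (0.82 ± 0.16) and Serpinb8 (0.85 ± 0.18) rose besides Serpinb2. Further inhibitors of elastase-type proteases rose, the secreted inhibitor Slpi (1.20 ± 0.14, adjusted p = 0.00364), named after its values were seen, and Wfdc15b, a protein with the same type of domain (1.48 ± 0.25, adjusted p = 0.0163). Slpi was called in every fit without 1 array. The other calls ended as follows: Serpinb1a (without 3-day rat 1 and 3-day rat 2, adjusted p up to 0.0706), Serpinb6a (in 7 fits, adjusted p up to 0.0839), Serpinb8 (in 8 fits, adjusted p up to 0.120) and Wfdc15b (without sham rat 1, adjusted p up to 0.0506). The granulocyte list had a pattern like that of Serpinb1a, which is one of its genes. The mean level of its genes, each gene centred on its mean over 9 arrays, was -0.63, 0.06 and 0.12 in the sham rats and 0.39, 0.40 and 0.05 in the 3-day rats, and the part of granulocytes in these rises was not tested.

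Guidance and vessel genes moved singly. Besides Sema3c, its receptor-family member Nrp2 rose (0.56 ± 0.09, adjusted p = 0.0116), and the other 19 of 21 semaphorin, plexin and neuropilin genes did not pass (median -0.02). Among 16 ephrins and Eph receptors, Ephb2, a receptor tyrosine kinase of cell contact, fell, with 6.87, 7.56 and 7.17 in the sham rats and 6.12, 6.24 and 6.06 in the 3-day rats (-1.06 ± 0.16, adjusted p = 0.00924). Its groups were far apart, and the next gene, Epha2, missed the threshold (-0.44 ± 0.11, adjusted p = 0.0635). Angpt1, a ligand of the endothelial receptor Tie2, was the 1 riser among 17 angiopoietin and VEGF genes, with 6.04, 6.37 and 6.19 in the sham rats and 6.77, 7.03 and 7.19 in the 3-day rats (0.79 ± 0.13, adjusted p = 0.0124). Every 3-day value was above the highest sham value. Vegfa read 7.80, 7.77 and 7.91 in the sham rats and 7.96, 7.56 and 7.75 in the 3-day rats (-0.07 ± 0.10), and these overlapped. Of 36 genes of TGF beta, PDGF, IGF and repair growth factors, Hbegf, a ligand of the EGF receptor (1.11 ± 0.17), and Inhba, which encodes a subunit of activin A (1.08 ± 0.18), rose, but these calls ended in part: Hbegf (without sham rat 2, adjusted p up to 0.0505) and Inhba (without sham rat 2 and 3-day rat 2, adjusted p up to 0.0563). Tgfb1 differed by 0.11 ± 0.08, which did not pass.

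Heparan sulfate genes changed in both directions. Heparan sulfate is a sugar chain on cell surface and matrix proteins that binds growth factors and chemokines according to its sulfation. Of 31 genes, 3 rose and 2 fell, each in all 9 fits without 1 array, and the median was 0.0034. The fallers were both 3-O-sulfotransferases. Hs3st3a1 read 8.33, 8.11 and 8.39 in the sham rats and 7.0, 7.20 and 7.41 in the 3-day rats (-1.07 ± 0.11, adjusted p = 0.00245) and Hs3st3b1 read 8.43, 8.34 and 8.77 in the sham rats and 7.46, 7.54 and 7.57 in the 3-day rats (-0.99 ± 0.10, adjusted p = 0.00245). In both genes all 3-day rats were below all sham rats. Whether the probeset of either gene also detects the other was not tested, so the 2 falls may not be separate. The risers act at other steps: Sulf2, which removes 6-O-sulfate groups outside the cell, read 6.18, 6.45 and 6.34 in the sham rats and 7.12, 7.47 and 7.35 in the 3-day rats (0.99 ± 0.11, adjusted p = 0.00256). Sdc1, the core protein syndecan-1, rose by 0.78 ± 0.12, and Xylt1, which starts the chain on the core protein, rose by 0.56 ± 0.08 (adjusted p = 0.0103 and 0.00868). In neither gene did 3-day and sham rats overlap.

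Genes of arginine use held 4 risers. Arg1, the arginase that competes with nitric oxide synthase for arginine, read 8.70, 8.52 and 8.66 in the sham rats and 9.98, 9.78 and 10.02 in the 3-day rats (1.30 ± 0.20, adjusted p = 0.0113). The ligated rats lay close together, all above sham. Ass1, which together with Asl rebuilds arginine from citrulline, read 8.11, 8.42 and 8.46 in the sham rats and 9.37, 9.29 and 8.95 in the 3-day rats (0.87 ± 0.12, adjusted p = 0.00669). Asl rose by 0.39 ± 0.08, and Ddah1, which degrades an endogenous inhibitor of nitric oxide synthase, by 0.55 ± 0.07. These were 4 of 21 genes (median 0.08), and Asl alone lost its call, in 7 fits without 1 array. Nos2, the inducible nitric oxide synthase, read 12.43, 12.29 and 12.52 in the sham rats and 12.52, 12.53 and 12.49 in the 3-day rats, and its groups overlapped (0.10 ± 0.10).

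Lipid mediator genes that rose lie on several branches. Tbxas1, thromboxane synthase, read 7.62, 7.93 and 7.83 in the sham rats and 8.87, 9.03 and 8.67 in the 3-day rats (1.06 ± 0.11, adjusted p = 0.00228). Alox5ap, the protein that presents arachidonic acid to 5-lipoxygenase, read 8.11, 8.71 and 8.58 in the sham rats and 9.31, 9.47 and 9.33 in the 3-day rats (0.90 ± 0.14, adjusted p = 0.0103). These were the 2 risers of 24 eicosanoid genes (median 0.11), and neither gene's groups overlapped. Among 14 phospholipases A2, Pla2g2d, a secreted form, read 7.35, 7.20 and 7.26 in the sham rats and 8.29, 9.17 and 8.89 in the 3-day rats (1.52 ± 0.23, adjusted p = 0.0106). Its sham rats were tightly grouped and its 3-day rats were spread over almost 1 log2 unit. Pla2g7, which breaks down platelet-activating factor, rose by 1.21 ± 0.20, a call lost without 3-day rat 2 (adjusted p = 0.0523). Daglb, a lipase that makes the cannabinoid 2-arachidonoylglycerol, was the 1 riser (0.60 ± 0.07) of 17 genes of endothelin, angiotensin, adrenomedullin and cannabinoid signalling. The endothelin gene Edn1 did not pass (0.30 ± 0.26). Car4 and the mitochondrial Car5b rose among 14 carbonic anhydrases, and Car5b (0.95 ± 0.20) was called in 1 of the 9 fits without 1 array.

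The list with the largest share of risers was that of scar-associated and lipid-associated macrophages, cells described in fibrotic liver and fatty tissue. Of its 21 genes 12 rose, none fell and 20 were above 0, with a median of 0.50. The list was written with earlier results of these arrays known, so its count is no independent evidence. Gpnmb, a glycoprotein of lysosome-rich macrophages, read 9.49, 9.61 and 9.81 in the sham rats and 10.70, 10.44 and 10.34 in the 3-day rats (0.86 ± 0.11, adjusted p = 0.00449). Lgals3, galectin-3, read 10.47, 10.69 and 10.64 in the sham rats and 11.62, 11.70 and 11.32 in the 3-day rats (0.94 ± 0.10, adjusted p = 0.00245). Ctsl, the protease cathepsin L, read 10.15, 10.52 and 10.44 in the sham rats and 11.34, 11.30 and 11.19 in the 3-day rats (0.91 ± 0.09, adjusted p = 0.00242). In all of these the highest sham rat was below the lowest 3-day rat. Fabp4, a fatty acid carrier (1.12), Pld3, a lysosomal nuclease (1.01), Capg, which caps actin filaments (0.80), and the tetraspanin Cd63 (0.50) rose besides Fn1, Spp1, Anxa2, Vim and Ctsd. Of the 12 risers 7 were called in every fit without 1 array, and 8 rose without sham rat 2 or 3-day rat 2. The call of Cd63 held in 5 of these fits, that of Ctsd in 1 and that of Vim in none. The list's mean level was -0.47, -0.26 and -0.21 in the sham rats and 0.30, 0.30 and 0.19 in the 3-day rats, with sham rat 1 lowest.

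Lysosomal genes were slightly higher across the list. Of 26 hydrolases, membrane proteins and proton pump subunits 25 were above 0, 6 rose and none fell, with a median of 0.20; 6302 of all genes tested (45.0%) were above 0. Asah1, acid ceramidase, read 7.54, 7.73 and 7.89 in the sham rats and 8.37, 8.55 and 8.50 in the 3-day rats (0.76 ± 0.10, adjusted p = 0.00487). Mitf, a transcription factor of lysosome genes, read 8.55, 8.61 and 8.65 in the sham rats and 9.25, 9.52 and 9.19 in the 3-day rats (0.72 ± 0.09, adjusted p = 0.00388). Npc2, which moves cholesterol out of lysosomes, rose by 0.64 ± 0.10 (adjusted p = 0.0103). None of these had overlapping groups. Outside the list, Smpdl3a, an acid sphingomyelinase-like enzyme, rose by 1.07 ± 0.12 and the pump subunit Atp6v0a1 by 0.78 ± 0.08, both in every fit without 1 array. The other risers of the list, the pump subunit Atp6v1b2 (0.58), the sialidase Neu1 (0.56) and Cd63, lost their calls in at least 1 of them, and 4 genes rose without sham rat 1, sham rat 2 or 3-day rat 2. The 17 cathepsins and cystatins had 3 risers, Ctsl, the exopeptidase Ctsc (0.52) and Ctsd, and 1 in 5 of the fits without 1 array. Their median was 0.20.

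Among 30 genes of lipid efflux and its nuclear receptors, 3 rose (median 0.14). Ch25h, which makes the oxysterol 25-hydroxycholesterol, read 9.09, 9.28 and 9.50 in the sham rats and 10.30, 10.76 and 10.39 in the 3-day rats (1.20 ± 0.13, adjusted p = 0.00269), with all 3-day rats above sham. Soat1, which esterifies cholesterol, rose by 0.31 ± 0.07 and was called in 1 fit without 1 array. None of 22 cholesterol synthesis and uptake genes changed (median -0.04), and Sc5d (-0.30 ± 0.09) and Stard4 (-0.38 ± 0.12) had the smallest p values.

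Surface receptors for uptake rose in part. Msr1, scavenger receptor A, read 9.32, 9.43 and 9.56 in the sham rats and 10.41, 10.47 and 10.23 in the 3-day rats (0.93 ± 0.09, adjusted p = 0.00228). Lrp1, a large receptor for proteases, lipoproteins and haem complexes, read 8.58, 8.90 and 8.85 in the sham rats and 9.64, 9.78 and 9.48 in the 3-day rats (0.85 ± 0.10, adjusted p = 0.00338). In neither gene did the groups overlap. Cd14, the endotoxin co-receptor, rose by 0.92 ± 0.17 and lost its call in 4 fits without 1 array. Among 19 scavenger receptors these 3 rose (median 0.04). The mannose receptor Mrc1 read 4.80, 5.05 and 5.49 in the sham rats and 5.66, 5.71 and 6.15 in the 3-day rats (0.73 ± 0.22, adjusted p = 0.131) and did not pass. Of 16 myeloid C-type lectins 3 rose and 1, Clec9a, fell (median 0.50). Clec4a1 (1.01 ± 0.17) and Clec4a3 (0.59 ± 0.13) are near copies of each other, so their signals may be shared, and Clec5a rose by 1.08 ± 0.21. Each of these calls was lost in at least 1 fit without 1 array, and a single lectin rose in 4 of these fits.

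Cfp, properdin, which stabilises the alternative pathway convertase, read 8.90, 9.39 and 9.14 in the sham rats and 9.82, 9.97 and 10.17 in the 3-day rats (0.84 ± 0.12, adjusted p = 0.00868). Fcna and Fcnb encode ficolins, which bind sugars on microbes. Fcna read 6.52, 6.61 and 6.42 in the sham rats and 7.20, 7.34 and 7.25 in the 3-day rats (0.75 ± 0.08, adjusted p = 0.00245), and Fcnb, the form of monocytes and granulocytes, read 10.38, 11.06 and 10.99 in the sham rats and 12.16, 12.16 and 11.79 in the 3-day rats (1.23 ± 0.18, adjusted p = 0.0103). The groups were apart in both. Factor D (Cfd, 0.84 ± 0.14) and the receptor Cr2 (0.75 ± 0.14) rose as well, and were called in 7 and 6 of the 9 fits without 1 array. In all, 5 of 21 genes rose, 3 without sham rat 2, and 18 were above 0 (median 0.31). Slc40a1, the iron exporter ferroportin, read 6.13, 6.71 and 6.69 in the sham rats and 7.63, 7.80 and 7.90 in the 3-day rats (1.27 ± 0.17, adjusted p = 0.00507). All 3-day rats lay above all sham rats, and sham rat 1 was lowest. It was 1 of 3 risers, with Lrp1 and the haptoglobin gene Hp (0.72 ± 0.13, called in 5 of the 9 fits), among 25 iron and haem genes (median 0.18). Among 20 genes of Kupffer cell identity the risers were Slc40a1, Fcna and Cfp. That list's median of 0.25 was 0.12 without 3-day rat 3 and 0.35 without 3-day rat 2, and Clec4f read 4.76, 4.51 and 4.65 in the sham rats and 5.02, 4.74 and 5.82 in the 3-day rats (0.55 ± 0.23), with 3-day rat 3 standing alone.

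Macrophage identity genes included risers and a faller. Of 35 lineage markers and transcription factors 7 rose, 1 fell and 28 were above 0 (median 0.20). Itgam, the integrin chain CD11b, read 9.07, 9.33 and 9.38 in the sham rats and 10.07, 10.33 and 10.02 in the 3-day rats (0.89 ± 0.11, adjusted p = 0.00392). Egr2, a transcription factor of macrophage activation, read 10.81, 10.83 and 10.95 in the sham rats and 11.48, 11.75 and 11.35 in the 3-day rats (0.66 ± 0.10, adjusted p = 0.0115). Aif1, a calcium-binding actin partner of macrophages, rose by 0.88 ± 0.14 (adjusted p = 0.0119). Irf8, a transcription factor of monocyte and dendritic cell development, went down, with 10.97, 10.97 and 10.98 in the sham rats and 10.65, 10.61 and 10.51 in the 3-day rats (-0.38 ± 0.06, adjusted p = 0.0116). The sham values of Irf8 were close to one another and every 3-day value was below them. The rises of Maf (0.57), Klf4 (0.49), Cd14 and the lysozyme gene Lyz2 (0.37) were called in 4, 0, 5 and 4 of the 9 fits without 1 array, and 3 genes rose without sham rat 2.

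**Figure D3:**
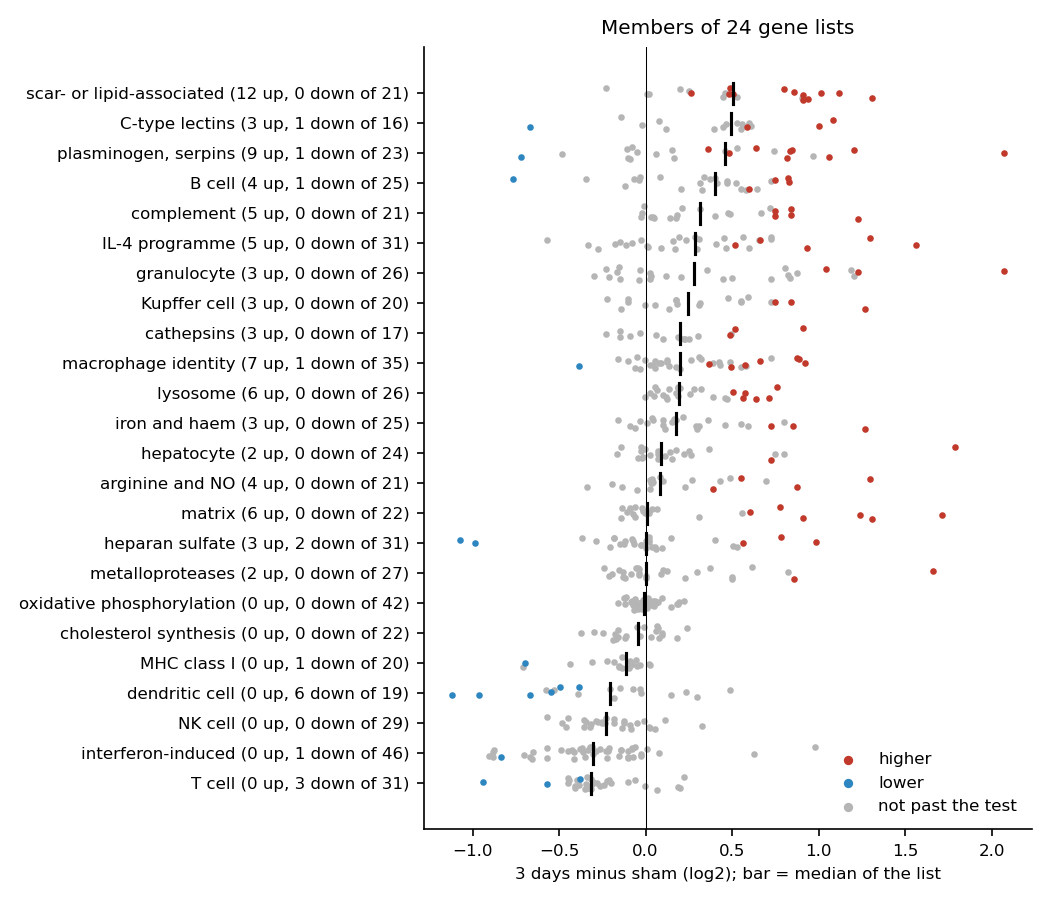
Difference between 3 days and sham (log2, horizontal axis) of each tested gene in 24 gene lists, with risers in red, fallers in blue, other genes in grey and the median of each list as a bar; vertical scatter within a list has no meaning. The scar- or lipid-associated and C-type lectin lists have the highest medians (both 0.50) and the T cell (-0.31) and interferon-induced (-0.31) lists the lowest, with most genes of the latter below 0 and not past the test.

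Myeloid growth factor and receptor genes changed in both directions. Csf1, the growth factor that keeps macrophages alive, read 9.03, 9.79 and 9.91 in the sham rats and 11.21, 11.17 and 10.75 in the 3-day rats (1.46 ± 0.24, adjusted p = 0.0136). Sham rat 1 was the lowest array by far, and the call ended without 3-day rat 2 (adjusted p = 0.0553). Its receptor Csf1r read 9.75, 9.99 and 9.94 in the sham rats and 9.98, 10.62 and 10.53 in the 3-day rats (0.49 ± 0.15, adjusted p = 0.143), and 3-day rat 1 overlapped with sham. Flt3, the receptor of a dendritic cell growth factor, read 8.59, 9.26 and 9.28 in the sham rats and 7.68, 8.05 and 8.04 in the 3-day rats (-1.12 ± 0.18, adjusted p = 0.0116). Kit, the stem cell factor receptor, fell (-0.55 ± 0.12) and Csf3r, the granulocyte growth factor receptor, rose by 1.04 ± 0.21; they were called in 2 and 3 of the 9 fits without 1 array. In all, 2 of 12 genes rose and 2 fell.

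Cytokine genes gave single risers. Il36b, an interleukin 1 family ligand, read 5.06, 5.0 and 5.05 in the sham rats and 5.83, 6.07 and 5.79 in the 3-day rats (0.86 ± 0.10, adjusted p = 0.00269). Osm, oncostatin M of the interleukin 6 family, read 8.78, 9.0 and 8.89 in the sham rats and 9.72, 9.97 and 9.63 in the 3-day rats (0.88 ± 0.09, adjusted p = 0.00245). Tnfsf13, known as APRIL, a survival ligand of B and plasma cells, rose by 0.91 ± 0.16, a call lost without 3-day rat 2 (adjusted p = 0.0675). No sham value of these genes reached a 3-day value. Il1r1 (0.65), Il1rap (0.44) and Nlrp3 (0.65) rose among 24 interleukin 1 and inflammasome genes, and each was called in 1 fit without 1 array. Tnf, Il1b, Il6 and Il10 did not pass (0.34 ± 0.17, 0.36 ± 0.12, 0.15 ± 0.28 and -0.27 ± 0.17). Of 32 tumour necrosis factor family genes 4 rose, with Tnfrsf13c (0.82), Cd40 (0.47) and Tnfrsf21 (0.39, called in none of the 9 fits) besides Tnfsf13, and 1 rose without 3-day rat 2. The interleukin 6, 12 and 23 list had Osm as its 1 riser of 21.

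Chemokine receptor genes Ccr1 and Ccr2, which bring monocytes into tissue, rose, the former with 10.21, 10.59 and 10.62 in the sham rats and 11.54, 11.55 and 11.17 in the 3-day rats (0.94 ± 0.14, adjusted p = 0.00832). Ccr2 read 9.64, 9.45 and 9.61 in the sham rats and 10.52, 10.77 and 9.97 in the 3-day rats (0.85 ± 0.17, adjusted p = 0.0331), and its call was lost in 7 fits without 1 array. They were 2 of 19 receptors. Ccl24, a ligand that attracts eosinophils, read 4.99, 5.31 and 5.40 in the sham rats and 6.28, 6.73 and 7.39 in the 3-day rats (1.56 ± 0.24, adjusted p = 0.0106) and was the 1 riser of 20 CC, XC and CX3C ligands. Its 3-day rats spread over more than 1 log2 unit, all above sham. None of 9 CXC ligands rose, and Cxcl1 came nearest (0.73 ± 0.18, adjusted p = 0.0636). Ccl24 and Arg1 led the 5 risers of 31 genes of alternative activation (median 0.28), with Msr1, Egr2 and Chi3l1; Chi3l1 (0.51 ± 0.11) was called in none of the 9 fits without 1 array.

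Most interferon-stimulated genes read lower at 3 days, but few passed the test singly. Of 46 interferon-stimulated effector genes 42 were below 0, with a median of -0.31, and 22 had groups without overlap. Of all genes tested 45.0% were above 0, 18.8% had groups without overlap and 0.714% fell. In the list only Ifi27l2b fell (2.17%), with 8.47, 8.53 and 8.66 in the sham rats and 7.65, 7.57 and 7.93 in the 3-day rats (-0.84 ± 0.16, adjusted p = 0.0225). Ifi27l2b was called in 4 of the 9 fits without 1 array. The median was -0.20 without 3-day rat 1 and -0.36 without 3-day rat 3. In the 9 fits without 1 array 0 to 8 of the genes fell and 0 to 1 rose. Irf7, the transcription factor that amplifies the response, read 9.91, 9.78 and 9.92 in the sham rats and 8.50, 9.14 and 9.26 in the 3-day rats (-0.91 ± 0.26, adjusted p = 0.111). Rsad2, the antiviral enzyme viperin, read 6.76, 6.92 and 7.03 in the sham rats and 6.06, 5.91 and 6.10 in the 3-day rats (-0.88 ± 0.20, adjusted p = 0.0520). In both genes all ligated rats were below all sham rats, Irf7 was lowest in 3-day rat 1, and neither passed. Mx1 (-0.67 ± 0.22) and Isg15 (-0.65 ± 0.32) did not pass either, and Ifit1 went the other way without passing (0.62 ± 0.20). In the list 4 genes were above 0, the highest at 0.98, and none of them passed.

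Cytosolic sensors of viral nucleic acids, which switch the response on, included 3 fallers among 17 genes (median -0.04). Ifih1, the RNA sensor MDA5, read 9.53, 9.25 and 9.42 in the sham rats and 8.79, 9.02 and 8.86 in the 3-day rats (-0.51 ± 0.11, adjusted p = 0.0490). Zbp1, a sensor of left-handed nucleic acids, fell (-0.51 ± 0.11), and so did Rig1, the rat symbol of the RNA sensor RIG-I (-0.37 ± 0.08). All 3-day values of these sensors were under the sham values, yet the calls were thin: Zbp1 was called in 2 of the 9 fits without 1 array, and Ifih1 and Rig1 in 1 each. MHC class I genes, which interferons induce, had 1 faller of 20, RT1-S3 (-0.70 ± 0.15), which was called in none of those fits and belongs to a family of near copies; 18 of the genes were below 0 (median -0.11). The interferon list's mean level was 0.20, 0.07 and 0.19 in the sham rats and -0.31, -0.07 and -0.06 in the 3-day rats. At 10 days it was 0.22, -0.09 and -0.15, so 1 rat of that group was at the sham level.

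Many interferon-stimulated genes carry a DNA element upstream of the start, to which interferon-activated factors bind, though other genes carry it too. The windows printed here, from RefSeq on build GRCr8, show it in the 4 list genes with the lowest differences that hold it, none of which passed the test, and in the sensor gene Ifih1, which passed the test. They are written 5′ to 3′ on the strand of the gene, and capitals mark the element searched, 2 copies of GAAA with any 2 bases between them, or its reverse complement.

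Irf7 (chr1:205800033-205800142, minus strand): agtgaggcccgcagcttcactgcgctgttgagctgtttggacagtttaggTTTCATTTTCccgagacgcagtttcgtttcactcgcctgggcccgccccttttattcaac
Rsad2 (chr6:48788208-48788317, minus strand): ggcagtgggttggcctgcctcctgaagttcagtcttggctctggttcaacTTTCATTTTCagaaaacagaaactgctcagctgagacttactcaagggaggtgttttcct
Oas1b (chr12:41395853-41395961, minus strand): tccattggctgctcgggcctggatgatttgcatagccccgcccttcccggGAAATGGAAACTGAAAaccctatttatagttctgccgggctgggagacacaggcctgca
Xaf1 (chr10:57415874-57415934, plus strand): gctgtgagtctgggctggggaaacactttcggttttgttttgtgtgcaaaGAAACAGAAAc
Ifih1 (chr3:67683969-67684077, minus strand): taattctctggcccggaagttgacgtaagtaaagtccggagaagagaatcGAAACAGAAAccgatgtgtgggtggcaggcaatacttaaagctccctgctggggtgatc

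The Oas1b window holds 2 overlapping matches and the others 1 each. Oas1b, an antiviral enzyme, read 7.53, 6.71 and 6.82 in the sham rats and 6.15, 5.88 and 6.42 in the 3-day rats (-0.88 ± 0.25, adjusted p = 0.105), and Xaf1 read 7.15, 6.73 and 6.81 in the sham rats and 6.02, 6.37 and 6.34 in the 3-day rats (-0.66 ± 0.17, adjusted p = 0.0828); both were lower in all ligated rats and did not pass. In the 250 bases before the start, 22 of the 37 interferon list genes with a RefSeq promoter held the element on either strand, against 3.32% of all 27457 promoters. The 22 were all below 0, with a median of -0.32, and the other 15 had a median of -0.29. Outside the interferon and sensor lists 287 tested genes held it, and their median of -0.02 was near the -0.01 of genes without it. It was present in 10 of the 246 risers with a promoter (4.07%) and 4 of the 73 fallers (5.48%), beside 2.73% of the 11351 tested genes with one. In all, 11 motifs were counted on both strands after the expression values had been seen. CACGTG was in 7.32% of risers, 6.85% of fallers, 7.79% of tested genes and 5.77% of all promoters. TGANTCA was in 8.94%, 5.48%, 5.06% and 6.39% of the same sets, and CCAAT in 29.3%, 42.5%, 35.05% and 34.2%. TGCGCNC was in 19.1%, 20.5%, 20.6% and 12.5%. GAGGAAGT was in 3.25%, 2.74%, 2.31% and 2.03%, and TTCNNNGAA in 6.504%, 9.59%, 5.86% and 7.56%. TTGCGCAA, GCGTGGGCG and TCACGTGA, the last of which contains CACGTG, were in 0.157%, 0.517% and 0.743% of all promoters and in under 3% of each other set. The direct repeat of AGGTCA with 4 bases between its copies was in none. A match describes the letters of a window and is not evidence that a factor binds there.

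Markers of other cell types moved in the same comparison. Of 31 genes of the T cell receptor complex and its signalling 27 were below 0 (median -0.31) and 3 fell. Sla2, an adaptor that restrains receptor signalling, read 10.19, 10.26 and 10.49 in the sham rats and 9.40, 9.35 and 9.38 in the 3-day rats (-0.94 ± 0.11, adjusted p = 0.00364). Cd7, a surface protein of T and natural killer cells, read 12.45, 12.25 and 12.29 in the sham rats and 11.82, 11.78 and 11.68 in the 3-day rats (-0.57 ± 0.07, adjusted p = 0.00411). Both were apart in all rats and called in every fit without 1 array, while the transcription factor gene Tcf7 (-0.38 ± 0.08) was called in 2. Cd3e read 9.91, 9.57 and 9.72 in the sham rats and 9.11, 9.46 and 9.60 in the 3-day rats, with overlap (-0.34 ± 0.13, adjusted p = 0.237). The mean T cell level was 0.30, 0.12 and 0.21 in the sham rats and -0.17, -0.03 and 0.03 in the 3-day rats. None of 29 natural killer and granzyme genes fell (median -0.23), and their level was 0.18, 0.13 and 0.22 in the sham rats and 0.14, 0.06 and -0.26 in the 3-day rats, where 3-day rat 3 stood apart and the median without it was -0.11.

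Dendritic cell genes held the largest share of fallers of any list named here: 6 of 19 (31.6%), with none up and a median of -0.21. Of all genes tested 0.714% fell. Flt3, Irf8, Kit and Clec9a were also counted in other lists above. They were Flt3, Irf8, Kit, Cadm1, an adhesion molecule (-0.96), Clec9a, a receptor for dead cells on cross-presenting dendritic cells, and Runx2, a transcription factor (-0.49 ± 0.07, adjusted p = 0.00658). Clec9a read 6.13, 6.32 and 6.28 in the sham rats and 5.32, 5.69 and 5.72 in the 3-day rats (-0.67 ± 0.11, adjusted p = 0.0157), with no overlap, and its call ended without sham rat 2 or sham rat 3, when 3 genes of the list fell. Flt3, Irf8 and Runx2 were called in every fit without 1 array and Cadm1 in 5. The mean level was 0.07, 0.13 and 0.16 in the sham rats and -0.15, -0.23 and -0.08 in the 3-day rats, lower in all ligated rats.

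Of 25 B cell markers 4 rose and 1 fell (median 0.40). The receptor gene Tnfrsf13c rose with 7.84, 7.91 and 7.98 in the sham rats and 8.79, 8.43 and 8.97 in the 3-day rats (0.82 ± 0.13, adjusted p = 0.0118), the pre-B cell gene Vpreb3 by 0.83 ± 0.16 and the kinase Btk by 0.60 ± 0.12, while the adaptor Blnk fell (-0.76 ± 0.16). Vpreb3, Btk and Blnk were called in 4, 5 and 1 of the 9 fits without 1 array. The list's level was -0.29, -0.22 and -0.24 in the sham rats and 0.04, -0.15 and 0.33 in the 3-day rats, so 3-day rat 2 was close to sham. A single gene rose without sham rat 1 or sham rat 3, and the median was 0.28 without 3-day rat 3. Granulocyte genes had 3 risers of 26, Serpinb1a, Fcnb and Csf3r (median 0.28, and 0.09 without sham rat 1). S100a8, a calcium-binding protein of neutrophils and monocytes, read 6.34, 7.70 and 7.83 in the sham rats and 8.61, 9.06 and 7.77 in the 3-day rats and did not pass (1.19 ± 0.42, adjusted p = 0.191). Hepatocyte genes had 2 risers of 24, Fetub and Hp (median 0.09). The albumin gene Alb read 7.67, 6.83 and 7.80 in the sham rats and 8.23, 7.30 and 9.01 in the 3-day rats, with overlap (0.75 ± 0.39), and the list's level was -0.11, -0.20 and -0.09 in the sham rats and 0.18, -0.06 and 0.18 in the 3-day rats. Of 16 platelet genes 11 were above 0 (median 0.16, and 0.09 without 3-day rat 3), beside 45.0% of all genes tested. P2ry12, a nucleotide receptor, fell (-0.89 ± 0.14) and no other platelet gene passed. The call of P2ry12 ended without sham rat 2 or 3-day rat 2, and 4 platelet genes rose without 3-day rat 2.

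With the mean level of the T and natural killer cell genes as a covariate, no gene was called at an adjusted p under 0.05, and 858 had an unadjusted p under 0.05 with limma. That level was 0.13 to 0.24 in sham and -0.11 to 0.01 at 3 days, so it runs along with the groups. In that fit the 301 risers were all still above 0, with a median of 0.55, and the 100 fallers all below 0, with a median of -0.57, while the median SE over all genes went from 0.0861 to 0.184. With the hepatocyte level as a covariate 66 genes were called, of which 54 were among the 401, and the median SE was 0.144.

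**Figure D4:**
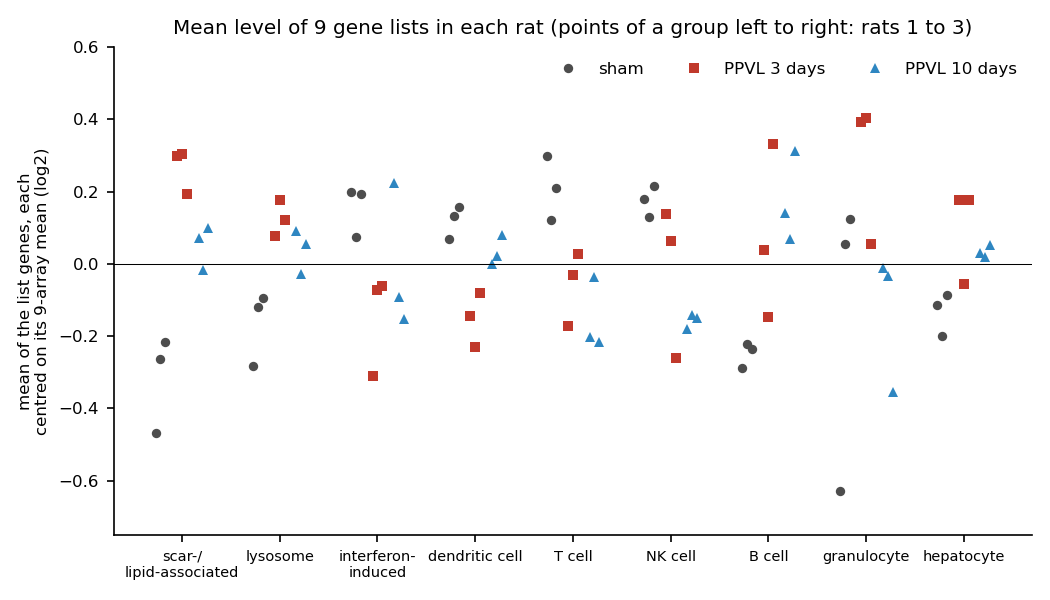
Mean level of 9 gene lists in each rat, as the mean over a list's genes of the log2 signal minus the gene's mean over 9 arrays (vertical axis), for sham (grey circles), 3 days (red squares) and 10 days (blue triangles) after PPVL. Scar- or lipid-associated and lysosome genes are higher and T cell, dendritic cell and interferon genes lower in all 3-day rats than in all sham rats, and sham rat 1 stands apart in the granulocyte list (-0.63).

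The mediators and enzymes of nucleotides outside the cell included 2 risers of 30 and 1 faller, P2ry12. Enpp3, an ectoenzyme that cleaves extracellular nucleotides, read 8.36, 8.88 and 8.98 in the sham rats and 10.14, 10.33 and 10.09 in the 3-day rats (1.45 ± 0.14, adjusted p = 0.00228). P2ry2, a receptor for ATP and UTP, read 8.62, 8.48 and 8.64 in the sham rats and 9.33, 9.69 and 9.33 in the 3-day rats (0.87 ± 0.10, adjusted p = 0.00376). Both were higher in all ligated rats. Of 32 oxidase and antioxidant genes 3 rose (median 0.20), led by the glutathione peroxidase Gpx1 (0.65 ± 0.08, adjusted p = 0.00411), with Prdx5 (0.60) and the oxidase subunit Ncf1 (0.52) each called in 5 of the 9 fits without 1 array. Oscar and the kinase Syk (0.36, called in 4 of the 9) rose among 27 Fc receptor and associated signalling genes (median 0.16). For the uptake of dying cells, Dock1, which drives the engulfing membrane, and Lrp1 rose and the bridging protein gene Mfge8 fell (-0.39 ± 0.08, called in 2 of the 9 fits) among 23 genes. Dock1 read 4.85, 4.70 and 5.04 in the sham rats and 5.56, 5.50 and 5.58 in the 3-day rats (0.68 ± 0.08, adjusted p = 0.00379), a dim gene with clear separation. Of 22 leukocyte integrin genes Itgam, Itgb7 (0.68) and Itga5 (0.68) rose, the last in 3 of the 9 fits. Haem oxygenase Hmox1 differed by 0.46 ± 0.12, which did not pass.

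Few genes of housekeeping metabolism and proliferation changed. None of 42 respiratory chain genes changed, with a median of -0.01. Of 31 glycolysis and hypoxia genes Pfkfb4, a regulator of glycolytic flux, rose (0.48 ± 0.07, adjusted p = 0.00853) and Ldha, lactate dehydrogenase, fell (-0.30 ± 0.06, adjusted p = 0.0333). Ldha was called in 3 of the 9 fits without 1 array. Of 39 cyclins and proliferation genes only Ccnd1, which encodes cyclin D1, changed, with 6.66, 6.85 and 7.0 in the sham rats and 5.93, 5.56 and 6.03 in the 3-day rats (-1.0 ± 0.12, adjusted p = 0.00392), while the proliferation marker Mki67 read 7.41, 7.73 and 8.08 in the sham rats and 7.47, 7.82 and 7.68 in the 3-day rats (-0.08 ± 0.15). Ccnd1 was lower in all ligated rats and Mki67 overlapped.

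In the lists not yet described, risers are given by name. Of all genes tested 2.15% rose and 0.714% fell. There was 1 riser each among 24 Toll-like receptor genes (Cd14), 32 immediate early and dissociation stress genes (Egr2), 20 metallothionein and zinc transport genes (Slc30a4), 18 MHC class II genes (RT1-DOa), 19 stellate cell markers (Ecm1) and 45 glycosyltransferases (B4galt6). Among 24 costimulatory genes Cd40 and Sirpa rose (8.33%), and among 9 cholangiocyte markers Prom1 and Spp1 (22.2%). Of 25 lysophosphatidic acid and sphingosine phosphate genes Sgpl1 rose and Plpp3 fell, and of 6 mast cell markers Kit fell. None of 9 erythroid or 20 sinusoidal endothelial markers changed. The medians of these 12 lists lay between -0.02 and 0.19. Of their risers and fallers, Cd14, Slc30a4, Ecm1, Cd40, Sirpa, Spp1, Sgpl1, Plpp3 and Kit each lost the call in at least 1 fit without 1 array, and RT1-DOa was called in 2 of the 9.

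At 10 days the 3-day differences were mostly smaller. The median difference of the 301 risers from the sham mean was 0.61, 0.71 and 0.59 in the 3-day rats and 0.41, 0.35 and 0.38 in the 10-day rats. That of the 100 fallers was -0.53, -0.53 and -0.49 at 3 days and -0.40, -0.35 and -0.38 at 10 days. These genes were chosen for their 3-day difference and both days share the sham rats, so a smaller value at 10 days is in part fixed by the choice. The direct test of 10 days against 3 days called 10 genes (0.0714% of those tested), 3 higher (0.0214%) and 7 lower at 10 days, and 1578 had an unadjusted p under 0.05. All 7 that were lower were among the 3-day rises.

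Sema3c was 6.56, 6.60 and 6.32 at 10 days, between the sham and the 3-day rats (-1.32 ± 0.14, adjusted p = 0.0165 for 10 minus 3 days). Fn1 was 11.02, 11.02 and 10.99 (-0.78 ± 0.10, adjusted p = 0.0324), also in between. Enkur, a ciliary adaptor, had read 5.25, 5.12 and 5.13 in the sham rats and 5.90, 6.04 and 5.85 in the 3-day rats and was 5.07, 5.28 and 5.08 at 10 days (-0.79 ± 0.08, adjusted p = 0.0165), within the sham range or close to it. Htra4, a secreted serine protease, was 7.42, 7.63 and 7.39 at 10 days against 7.57, 7.37 and 7.40 in the sham rats and 8.60, 8.36 and 8.27 in the 3-day rats (-0.92 ± 0.10, adjusted p = 0.0194). Among the 10 genes Igkvl7, an immunoglobulin light chain locus, was the 1 that had fallen at 3 days, a call held in 5 of the 9 fits without 1 array. At 10 days it read 5.38, 5.08 and 5.42, with 10-day rat 2 inside the sham range (0.76 ± 0.09, adjusted p = 0.0324). Il23r and Rpl26-ps13 were not changed at 3 days by the test (-0.12 ± 0.08 and -0.08 ± 0.09). No gene was called when 10-day rat 3, 3-day rat 1 or sham rat 2 was left out. Leaving out 10-day rat 1, sham rat 3, 10-day rat 2, 3-day rat 3, sham rat 1 and 3-day rat 2 gave 1, 4, 5, 9, 15 and 18.

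For further genes, chosen after their values were seen, both days can be set side by side: 3 days and 10 days against the same sham rats gave 0.86 and 0.75 for Gpnmb, 0.76 and 0.72 for Asah1, 0.89 and 0.78 for Itgam, 0.60 and 0.61 for Daglb, and 0.66 and 0.61 for Egr2. In none of these did the direct test of the days pass, which does not show that the days are alike. By list, the medians at 3 and 10 days were 0.50 and 0.35 for scar- or lipid-associated genes, 0.46 and 0.14 for plasminogen activation and serpins, -0.31 and -0.15 for interferon-stimulated genes, -0.31 and -0.43 for T cell genes and 0.40 and 0.53 for B cell genes.

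**Figure D5:**
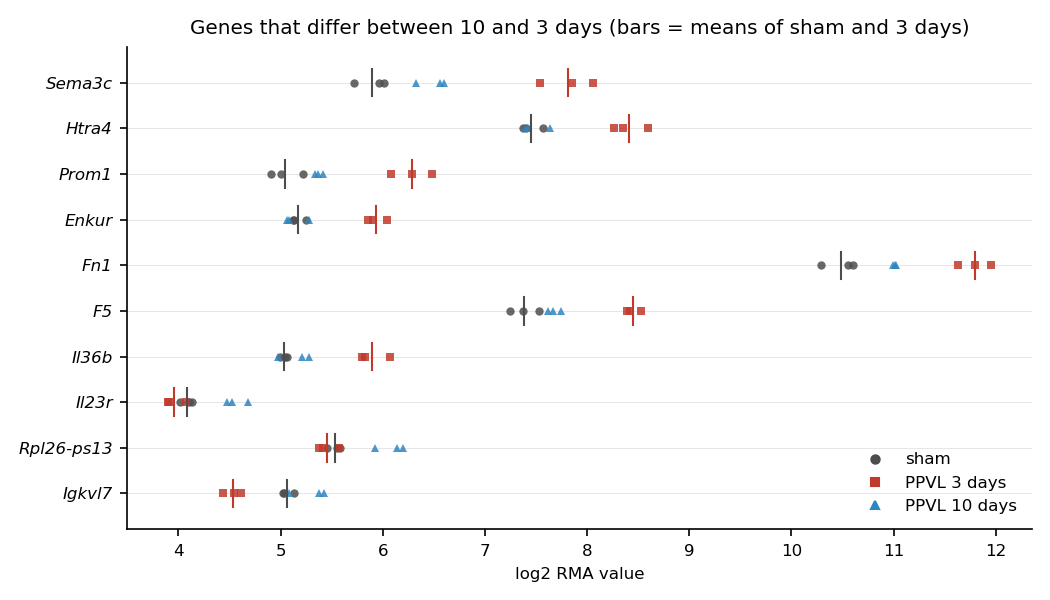
Log2 signal per rat (horizontal axis) of the 10 genes past the test of 10 days against 3 days, for sham (grey circles), 3 days (red squares) and 10 days (blue triangles), with bars at the sham and 3-day means. The 7 upper genes rose at 3 days and were lower at 10 days, at or near the sham values for Htra4, Enkur and Il36b and between the groups for Sema3c and Fn1.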

How the data were processed

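The values used are the authors' deposited log2 signals of 36685 probesets on 9 single-colour Affymetrix arrays, made with RMA (background correction, quantile normalization and summary of probes); the submitters' processing notes name RMA and Transcriptome Analysis Console. Their versions and the genome build are not given in the sources used here. Nothing was renormalized. Probesets with 1 gene symbol (18511, for 18166 genes) were kept, the brightest standing for its gene; 575 carried several symbols and 17599 none. A gene was tested when its mean over 9 arrays reached 4.16, the 30th percentile over probesets, which left 14014. The model, in limma 3.58.1 (R 4.3.3), took all 9 arrays in 3 groups, with 6 residual and 3.59 prior degrees of freedom, 2-sided, with Benjamini-Hochberg adjustment and a threshold of 0.05. The labels number the 3 arrays of each group, and each array was taken as a separate rat.

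Members, 64 gene lists, the rule for named genes and the settings were chosen with earlier results of these data known. The rule names the 20 largest rises and 15 largest falls past the test without overlap, up to 5 genes past the test per list (or the smallest p, up to 2), 25 fixed genes, and the 10 genes with the smallest p called in every fit without 1 array; genes outside it were chosen after their values were seen, among them the cell contact, calcium-binding, transporter and interferon genes given only as values. Of 1608 list genes 178 were not on the array, 19 matched by synonym and 113 were too dim. Alternatives were no filter, the 50th percentile as limit, probeset means, all probesets, quantile normalization, trend and robust moderation, array weights, a replicate block, only 6 arrays, 2 covariates and without each array; the procedure was tested on simulated data. Promoter windows are RefSeq's (GRCr8).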

Additional observations from a re-analysis of the deposited data

Results flagged for a closer look

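In 7 genes named above the difference from sham at 3 days itself differed from that at 10 days, by limma's direct test with Benjamini-Hochberg adjustment over all genes tested. The 10-day minus 3-day differences were -1.32 ± 0.14, adjusted p = 0.0165 for Sema3c, -0.78 ± 0.10, adjusted p = 0.0324 for Fn1, -0.91 ± 0.11, adjusted p = 0.0291 for Prom1, -0.77 ± 0.08, adjusted p = 0.0165 for F5, -0.74 ± 0.10, adjusted p = 0.0324 for Il36b, -0.79 ± 0.08, adjusted p = 0.0165 for Enkur and -0.92 ± 0.10, adjusted p = 0.0194 for Htra4. All were higher in the 3 rats at 3 days than in the 3 rats at 10 days. They were named for their rise at 3 days, which favours a lower value at 10 days.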

How the results depend on the processing

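None of the 140 named genes past the test turned direction under any setting run for single genes. For the fits without 1 array this was fixed by the choice, since no called gene had overlapping groups. Of the 51 named genes that did not pass, 14 turned under at least 1 setting, such as Mki67, Vegfa, Il6, Edn1, Clec4f and Alb. The count of changed genes, 401, was 191 with all probesets (a count of probesets, named or not), 134 with only the 6 arrays in the fit (128 of them among the 401), 66 with the hepatocyte level and 0 with the T and natural killer cell level as a covariate; rises were 155, 99, 57 and 0 and falls 36, 35, 9 and 0. With array weights falls were 162. Leaving out 1 array gave 190 to 327 changed genes, 161 to 249 rises and 23 to 93 falls, and 0 to 18 genes that differ between the days, of which there were 0 with all probesets or the T and natural killer cell level. The other settings (no filter, the 50th percentile, the mean of probesets, quantile normalization, trend with robust moderation) gave 324 to 490 changed genes, and array weights 530. Deviations of same-numbered arrays correlated at -0.10 to 0.08 and those of differently numbered arrays at -0.13 to 0.17. With so few arrays this does not show whether replicate numbers pair the rats. With the replicate block 264 genes changed, 195 up, and 0 differed between the days. The number of arrays limits precision, and the 4152 genes under the signal limit were not tested.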

Other observations

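Genes of the contact between the actin skeleton and matrix-binding integrins, together with Lmna, were collected after the values had been seen. They are therefore given without a test of the group. They included 7 risers and no fallers among 27 measured (median difference 0.06), beside 2.15% of all genes tested that rose. The risers were Actn1, which cross-links actin (0.94 ± 0.15), Lims1 (0.56 ± 0.09), Parvb (0.78 ± 0.09) and Rsu1 (0.40 ± 0.06), which form or bind a complex with integrin-linked kinase, the nuclear lamina gene Lmna (0.78 ± 0.10), Tns1 (0.66 ± 0.13) and Pdlim7 (0.43 ± 0.09). The first 5 were called in every fit without 1 array, Tns1 in 6 and Pdlim7 in 3 of the 9. Actn1 read 7.20, 7.15 and 7.62 in the sham rats and 8.25, 8.47 and 8.06 in the 3-day rats, and Parvb read 7.38, 7.40 and 7.54 in the sham rats and 8.19, 8.14 and 8.35 in the 3-day rats. Calcium-binding proteins that rose were Anxa2, Anxa4 and Anxa5 among 10 annexins (median 0.33) and S100a4 and S100a6 among 10 S100 genes (median 0.44). None of these 5 was called in every fit without 1 array. S100a6 read 9.17, 9.55 and 9.45 in the sham rats and 10.35, 10.30 and 9.92 in the 3-day rats (0.80 ± 0.13, adjusted p = 0.0128), with no overlap.

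Among 283 solute carriers there were 10 risers and 5 fallers (median -0.02). Of all genes tested 2.15% rose and 0.714% fell, with a median of -0.01, so the family was not far from the array as a whole. Besides Slc40a1 the risers called in every fit without 1 array were the amino acid carrier Slc7a8 (0.81 ± 0.09), the nucleoside carrier Slc28a2 (0.75 ± 0.10), Slc41a2 (0.74 ± 0.11) and Slc25a24 (0.59 ± 0.09). Of the fallers 1 was, Slc37a1 (-0.52 ± 0.07), with 6.96, 7.0 and 7.16 in the sham rats and 6.46, 6.50 and 6.60 in the 3-day rats. Detoxifying Mgst1 (1.01 ± 0.16) and Mgst2 (0.60 ± 0.11) rose of 3 microsomal glutathione transferases, while none of 12 cytosolic ones changed (median 0.05). None of 51 ribosomal protein genes, those whose symbol has at most 1 letter after its number, changed (median -0.04). Outside this set Rpl36l3 fell (-0.30 ± 0.06, adjusted p = 0.0325), a call held in 2 of the 9 fits without 1 array.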
